A study of Homo sapiens with 6 samples.

Results

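Keratins are the intermediate filament proteins of epithelial cells. The 10 keratin genes described here comprise 8 grouped as luminal or basal keratins of glandular epithelia, with KRT10 and KRT80. They were chosen by name: KRT5, KRT7, KRT8, KRT10, KRT14, KRT15, KRT17, KRT18, KRT19 and KRT80, and all 10 were among the 23998 gene rows of the counts table. RNA sequencing of poly(A) RNA compared LNCaP with an enzalutamide-resistant line derived from it. LNCaP is an androgen-responsive human prostate carcinoma line, and enzalutamide is an antagonist of the androgen receptor. The untreated parent line, LNCaP-WT, gave 3 libraries. The resistant line, LNCaP-ENZR, gave 3 libraries and had been selected for more than 12 months in enzalutamide raised from 5 to 50 µM, in medium with 10% charcoal-stripped serum. The common growth medium held 10% fetal bovine serum, so drug and serum history differ together between the lines and cannot be told apart. Whether LNCaP-ENZR is a clone or a pool, and whether it was in enzalutamide at harvest, is not given in the sources used here. Nor is it given whether the libraries of a line came from separate cultures. The p-values are thus set against library-to-library spread within a line, and that spread may be technical only. In such bulk RNA, fewer cells of a type and less RNA per cell cannot be told apart.

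Keratin filaments are built from pairs of unlike chains, 1 of type I and 1 of type II, and neither chain is stable for long without its partner. In simple and glandular epithelia the pair is KRT8 (type II) with KRT18 (type I), and luminal prostate cells carry this pair. In many ducts KRT7 (type II) and KRT19 (type I) join it, and these 2 genes are grouped here with the luminal keratins. Basal cells of stratified epithelia and of the prostate carry KRT5 (type II) and KRT14 (type I), often with KRT15 and KRT17 (both type I). KRT10 (type I) is known from the suprabasal layers of epidermis, where its partner is KRT1, and KRT80 (type II) from differentiating epithelia. The type II genes lie together on chromosome 12 and the type I genes on chromosome 17, with KRT18 the exception, since it lies beside KRT8. Of the 10 genes, 5 lie on chromosome 12 and 5 on chromosome 17 (GRCh38, as in RefSeq).

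Levels are given as counts per 1000000 library reads (CPM), scaled by edgeR's TMM factors, and as FPKM, the deposited fragment number scaled by gene length and library total, wherever genes are compared with one another. The libraries held 34505712 to 36610862 gene-assigned reads. Differences are log2 fold changes of LNCaP-ENZR over LNCaP-WT with a standard error (SE). This SE is the absolute log2 fold change divided by the square root of F from edgeR's quasi-likelihood test. A gene was called when that test gave an adjusted p under 0.05 over the 15422 genes with enough counts to test. The lines differed widely: 69.2% of tested genes were called, 34.4% higher and 34.8% lower in LNCaP-ENZR. Of the 10 keratin genes, 6 were tested, and the filter on low counts removed KRT5, KRT7, KRT15 and KRT17. KRT10 and KRT19 rose, KRT8 fell, and KRT18, KRT80 and KRT14 were not called. That is 50.0% of the 6, below the share of all tested genes.

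**Figure D1:**
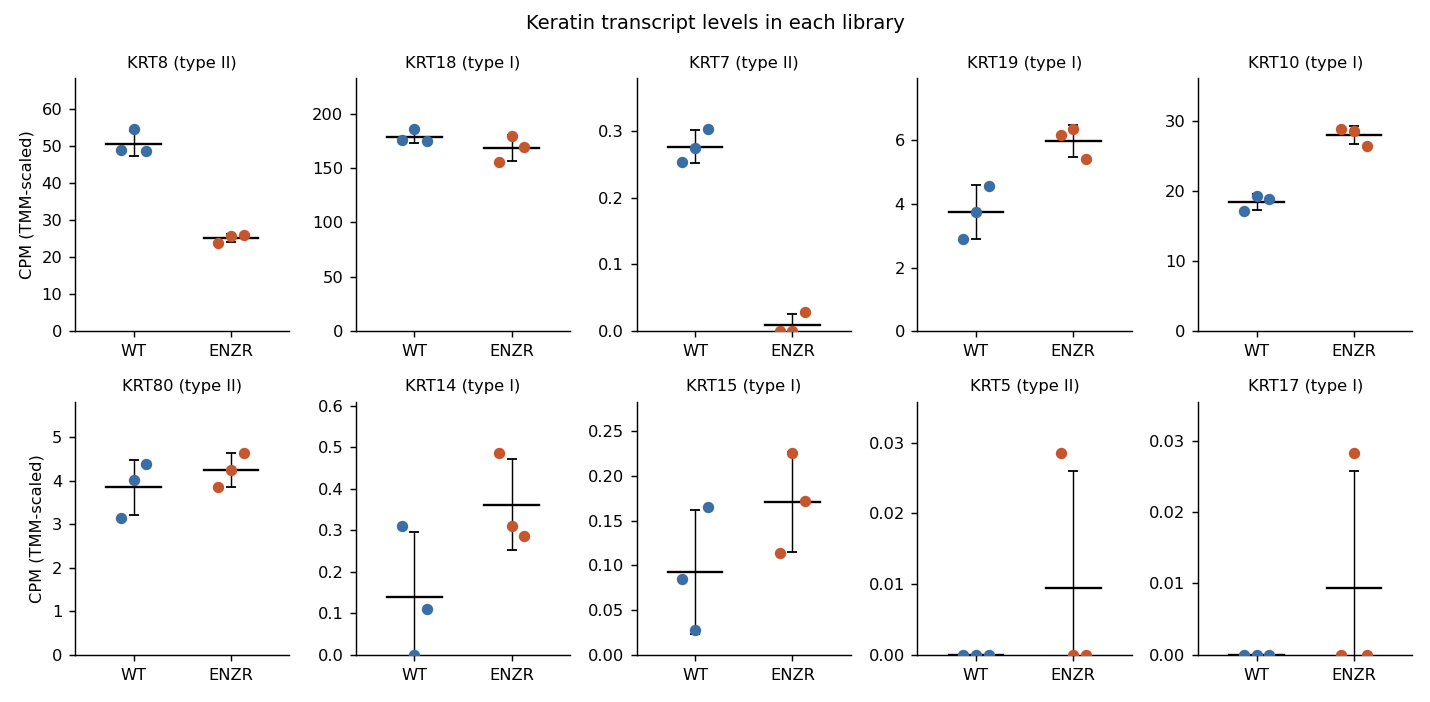
Level of each of the 10 keratin genes in CPM, 1 panel a gene with its own linear axis from 0, with 1 point for each of the 3 LNCaP-WT (WT) and 3 LNCaP-ENZR (ENZR) libraries, a line at the mean and bars of 1 SD. KRT8 and KRT7 are lower in all 3 LNCaP-ENZR libraries, KRT10 and KRT19 are higher in all 3, and KRT14, KRT15, KRT5 and KRT17 stay under 1 CPM in every library.

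KRT8 and KRT18 have many processed pseudogenes, so the likeness of these copies is described first, with the sequence for KRT18. In GENCODE release 29, 50 pseudogenes are named for KRT8 and 68 for KRT18. No stretch of 150 bases, the read length, of either main mRNA was identical in another keratin-named transcript. KRT18 came closest to KRT18P11, with 3 mismatches in 150 coding bases, which are in capitals. The KRT18 stretch lies in exons 6 and 7 of 7, within chr12:52952258-52952786 on the plus strand, and the KRT18P11 stretch at chrX:92460747-92460896 on the plus strand (GRCh38).
KRT18: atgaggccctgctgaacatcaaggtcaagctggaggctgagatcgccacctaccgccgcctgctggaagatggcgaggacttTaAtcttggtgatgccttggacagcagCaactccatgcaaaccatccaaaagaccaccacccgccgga
KRT18P11: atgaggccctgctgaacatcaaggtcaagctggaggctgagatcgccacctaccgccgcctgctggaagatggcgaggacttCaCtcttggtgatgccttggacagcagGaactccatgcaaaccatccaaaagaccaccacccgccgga
The closest copy of KRT8 came within 1 mismatch over 150 coding bases. A read with a sequencing error at such a base could be placed on either copy, and how the counting treated such reads was not tested. The 2 genes also overlap each other: annotated exons of KRT8 (minus strand, chr12:52897191-52949860) and KRT18 (plus strand, chr12:52948855-52952906) share 525 bases. These make up 375 of the 1562 bases of the main KRT18 mRNA and 0 of the 1882 bases of the main KRT8 mRNA. Whether the counting used strand is not given, and without it reads from the shared bases cannot be assigned to 1 of the 2 genes.

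**Figure D2:**
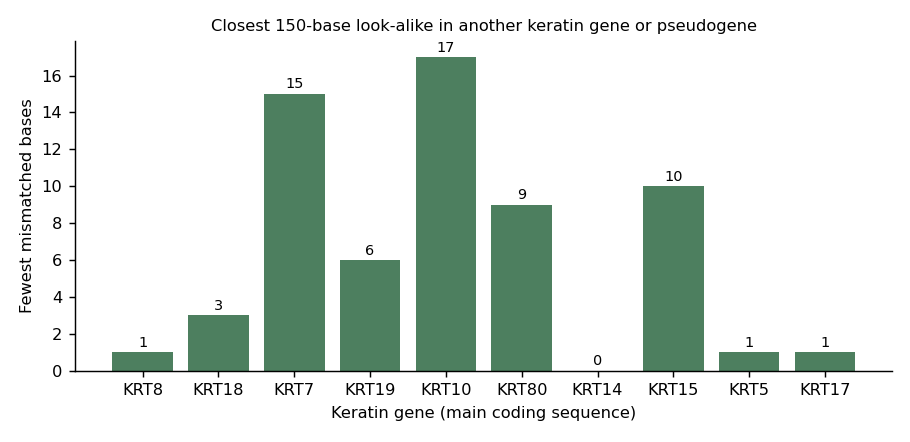
Bars give, for each of the 10 keratin genes, the fewest mismatched bases between any 150-base stretch of its main coding sequence and any of 200 other keratin-named genes and pseudogenes. KRT14 has an identical stretch in another gene, KRT8, KRT5 and KRT17 come within 1 mismatch and KRT18 within 3, whereas KRT7 (15) and KRT10 (17) are the most distinct of the 10.

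KRT8, the type II chain of the simple epithelial pair, was lower in LNCaP-ENZR. Its counts were 1734, 1995 and 1763 in LNCaP-WT and 835, 908 and 906 in LNCaP-ENZR. Every LNCaP-ENZR library lay below every LNCaP-WT library. The level went from 50.7 ± 3.41 to 25.2 ± 1.12 CPM (SD, n = 3 each), a log2 fold change of −1.01 (SE 0.075; edgeR adjusted p = 4.9e-10), or 2.01-fold lower. Of all tested genes, 11.9% were called with a fall of at least 2-fold and 9.74% with a rise of that size, and none of the 6 tested members of the set of 10 was called with such a rise.

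KRT18, the type I partner of KRT8, was not called, and its groups overlapped. Its counts were 6242, 6784 and 6342 in LNCaP-WT and 5462, 6366 and 5912 in LNCaP-ENZR. In CPM these were 176, 186 and 175 against 156, 180 and 169, and the overlap came through the second LNCaP-ENZR library. The means were 179 ± 6.04 and 169 ± 11.9 CPM (SD, n = 3 each), and the log2 fold change was −0.08 (SE 0.058; edgeR adjusted p = 0.21). A lower level of KRT18 was called with library totals alone (log2 fold change −0.17, adjusted p = 0.014), after a correction for gene length (−0.21) and without the second LNCaP-ENZR library (−0.13), and the direction was negative under all 17 alternatives.

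The ratio of KRT18 to KRT8 was therefore higher in the resistant line. On the FPKM scale KRT18 exceeded KRT8 by 4.78-, 4.52- and 4.78-fold in the LNCaP-WT libraries and by 8.69-, 9.31- and 8.67-fold in the LNCaP-ENZR libraries. The 2 ranges did not overlap. The mean log2 ratio was 2.23 ± 0.047 in LNCaP-WT and 3.15 ± 0.059 in LNCaP-ENZR, a difference of 0.92 (exact two-sided permutation p = 0.1, the smallest that 3 against 3 libraries allow). The same held for all type I against all type II members, with ratios of 5.03, 4.76 and 5.04 in LNCaP-WT and 9.49, 9.96 and 9.17 in LNCaP-ENZR. Summed type II FPKM was 27.3 ± 1.76 in LNCaP-WT and 13.2 ± 0.647 in LNCaP-ENZR, whereas summed type I FPKM was 135 ± 4.27 and 126 ± 7.42. KRT8 and KRT18 supply most of both sums, so this balance and the KRT18 to KRT8 ratio are not separate results.

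**Figure D3:**
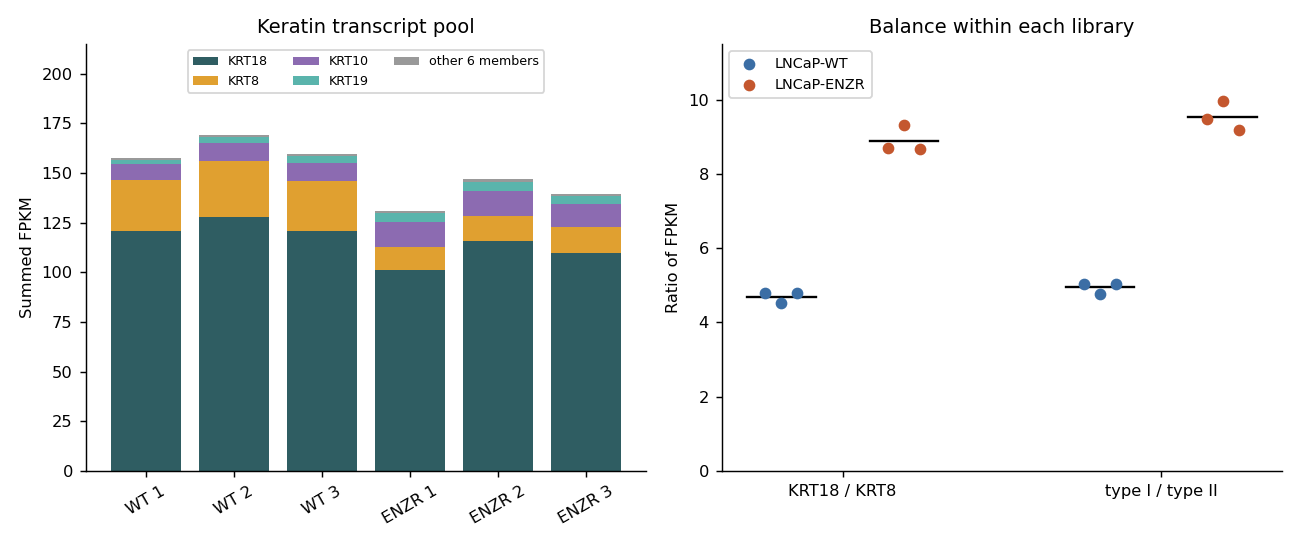
Left, summed FPKM of the 10 keratin genes in each library, stacked by gene; right, ratio of FPKM within each library (points) with the geometric mean of each line (bars). KRT18 over KRT8 lies between 4.52 and 4.78 in LNCaP-WT and between 8.67 and 9.31 in LNCaP-ENZR, type I over type II lies close to it in every library, and the KRT8 layer of the stack is thinner in all 3 LNCaP-ENZR libraries.

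KRT7, the other type II luminal keratin (chr12:52233243-52255853, plus strand), was close to absent in LNCaP-ENZR. It had 9, 10 and 11 counts in the LNCaP-WT libraries and 0, 0 and 1 in the LNCaP-ENZR libraries. The groups did not overlap, but both were near the detection limit, at 0.277 ± 0.025 and 0.00955 ± 0.0165 CPM (SD, n = 3 each). The ratio of LNCaP-WT to LNCaP-ENZR was 29.1 (95% exact binomial interval 4.84 to 1190), which covers counting error only. The filter left KRT7 out of the test. With no filter, edgeR gave a log2 fold change of −4.42 (adjusted p = 0.00094) and DESeq2 −4.75 (adjusted p = 0.0037). Annotated exons of the antisense gene KRT7-AS cover 221 of the 1754 bases of the main KRT7 mRNA, and KRT7-AS itself had 4, 12 and 1 counts in LNCaP-WT and 2, 0 and 1 in LNCaP-ENZR.

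KRT19, the short type I keratin without a tail domain that pairs with KRT8 or KRT7 in ducts, rose from a low level (chr17:41523617-41528308, minus strand). Its counts were 103, 137 and 166 in LNCaP-WT and 216, 225 and 189 in LNCaP-ENZR. The lowest LNCaP-ENZR library lay above the highest LNCaP-WT library. The level went from 3.74 ± 0.837 to 5.99 ± 0.504 CPM (SD, n = 3 each), a log2 fold change of 0.68 (SE 0.17; edgeR adjusted p = 0.0018), or 1.6-fold. Its nearest look-alike, KRT19P1, differed at 6 of 150 coding bases.

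KRT10 rose as well (chr17:40818117-40822614, minus strand). Its counts were 606, 701 and 681 in LNCaP-WT and 1006, 1008 and 922 in LNCaP-ENZR, again without overlap. The level went from 18.3 ± 1.12 to 27.9 ± 1.3 CPM (SD, n = 3 each), a log2 fold change of 0.61 (SE 0.083; edgeR adjusted p = 2.7e-06), or 1.52-fold. Of the 6 tested keratins, 3 had non-overlapping groups (KRT8, KRT10 and KRT19), against 72.2% of all tested genes. KRT10 shares 56 of the 2124 bases of its main mRNA with exons of the antisense gene KRT10-AS1, which GENCODE release 29 lists under its older symbol TMEM99 (a RefSeq synonym). The RefSeq span of KRT10-AS1 begins at base 40819145 of chromosome 17, inside the shared stretch, so part of the overlap rests on the GENCODE exons alone. All 56 are coding and are given as read from KRT10 at chr17:40819106-40819161 on the minus strand (GRCh38).
KRT10: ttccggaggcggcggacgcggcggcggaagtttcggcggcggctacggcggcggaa
KRT10-AS1 had 391, 510 and 514 counts in LNCaP-WT and 662, 797 and 764 in LNCaP-ENZR. It rose too, from 13.0 ± 1.77 to 21.1 ± 1.92 CPM (SD, n = 3 each; log2 fold change 0.69, edgeR adjusted p = 1.1e-05). Without strand, reads of the shared bases cannot be told apart, and the part of either gene's change that this overlap carries was not tested.

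KRT80 (chr12:52168996-52192014, minus strand) was not called. It had 112, 147 and 159 counts in LNCaP-WT and 135, 150 and 162 in LNCaP-ENZR, and the groups overlapped throughout. The means were 3.85 ± 0.632 and 4.25 ± 0.389 CPM (SD, n = 3 each), with a log2 fold change of 0.14 (SE 0.18; edgeR adjusted p = 0.49).

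The basal keratins were at or near 0 in both lines. KRT14 (chr17:41582279-41586895, minus strand) had 11, 0 and 4 counts in LNCaP-WT and 17, 11 and 10 in LNCaP-ENZR. The groups overlapped through the first LNCaP-WT library. The level was 0.14 ± 0.157 and 0.361 ± 0.109 CPM (SD, n = 3 each), with a log2 fold change of 1.36 (SE 0.71; edgeR adjusted p = 0.096), which was called only under 2 of 16 alternatives, namely limma-voom (2.17, adjusted p = 0.024) and without the first LNCaP-WT library (2.64, adjusted p = 0.013). Without the second LNCaP-WT library, which had 0 counts, it was 0.78 (adjusted p = 0.313), and with limma-trend on log2(FPKM + 1) it was 0.16. KRT15 had 3, 1 and 6 counts against 4, 8 and 6, a ratio of LNCaP-ENZR to LNCaP-WT of 1.85 (95% exact binomial interval 0.811 to 4.49). KRT5, the type II partner of KRT14, had 1 count in all 6 libraries together, in an LNCaP-ENZR library, and KRT17 likewise had 1.

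Some stretches of the basal keratins are identical or nearly so in other genes, and whether this touched any of their few counts was not tested. KRT14 shares 9 of its 1513 possible 150-base stretches with KRT16, and the coding stretch below is identical in KRT14 (chr17:41586376-41586525) and KRT16 (chr17:41612224-41612373), both in exon 1 on the minus strand.
KRT14 and KRT16: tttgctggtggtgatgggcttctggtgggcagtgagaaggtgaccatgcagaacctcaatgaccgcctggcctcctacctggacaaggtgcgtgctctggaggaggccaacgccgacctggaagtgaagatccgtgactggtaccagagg
KRT5 came within 1 mismatch of KRT6B over 150 coding bases, and KRT17 within 1 of KRT17P6. Summed basal FPKM (KRT5, KRT14, KRT15 and KRT17) was 0.12 ± 0.107 in LNCaP-WT and 0.28 ± 0.0556 in LNCaP-ENZR, from 25 and 58 counts in all. Summed luminal FPKM (KRT7, KRT8, KRT18 and KRT19) was 152 ± 5.69 and 126 ± 8.01. Luminal keratins thus exceeded basal keratins by a geometric mean of 2350-fold in LNCaP-WT and 454-fold in LNCaP-ENZR. The difference in the log2 ratio of basal to luminal keratins was 2.37 (exact two-sided permutation p = 0.1, the smallest possible), and 0.96 without the second LNCaP-WT library, which had 1 basal count.

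Placed in order by FPKM, KRT18 (123 ± 3.95 in LNCaP-WT) stood above KRT8 (26.3 ± 1.72), KRT10 (8.73 ± 0.538) and KRT19 (2.77 ± 0.626). In LNCaP-ENZR KRT18 again led, at 109 ± 7.53, but KRT8 at 12.3 ± 0.565 and KRT10 at 12.5 ± 0.53 did not differ beyond their spread, and KRT19 stood at 4.18 ± 0.332. KRT18 made up 76.0 ± 0.66% of the summed FPKM of the 10 genes in LNCaP-WT and 78.3 ± 1.0% in LNCaP-ENZR, and KRT8 16.2 ± 0.47% and 8.82 ± 0.31%. The share of KRT10 was 5.39 ± 0.23% and 9.0 ± 0.72%. Summed over all 10 genes the level was 157, 169 and 159 FPKM in LNCaP-WT and 131, 147 and 140 in LNCaP-ENZR. The groups did not overlap, and the mean was lower by 22.4 FPKM in LNCaP-ENZR (162 ± 6.0 against 139 ± 7.9; exact two-sided permutation p = 0.1, the smallest possible). With FPKM divided by TMM factors the difference was −13.4, and without KRT8 and KRT18 the sum was 5.27 FPKM higher in LNCaP-ENZR. Among all genes ordered by FPKM, KRT18 moved from rank 340 to 426 and KRT8 from 2237 to 4289.

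The table held 21 further keratin rows, of which 16 had fewer than 10 counts over the 6 libraries and 2 were tested. None averaged 100 counts or more. KRT75, a type II keratin of the hair follicle companion layer, had 32, 29 and 37 counts in LNCaP-WT and 0, 2 and 0 in LNCaP-ENZR, a ratio of 47.6 (95% exact binomial interval 12.8 to 398; edgeR adjusted p = 2e-06). KRT6C, a type II keratin of stratified epithelia, went the other way, with 2, 5 and 2 counts against 20, 18 and 19 (edgeR adjusted p = 0.00042). Neither overlapped between groups. Of the 150-base stretches of KRT6C, 16.5% are identical in KRT6A or KRT6B. Both genes fell outside the rule for naming and were chosen after their values were seen. Each passed the filter on low counts only through the line in which it was higher. Their adjusted p-values are therefore descriptive and give no separate support.

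By the root mean square difference of centred log2 CPM over the 6 libraries, the genes closest to KRT8 among 11542 compared were EOLA1 (0.038), BTG2 (0.042), an antiproliferative factor, and SELENOW (0.043), a selenoprotein. Closest to KRT18 were ILK (0.021), the integrin-linked kinase, ERGIC3 (0.024) and CEP131 (0.025), a centrosomal protein. Closest to KRT19 were FZD9 (0.089), a WNT receptor, NTHL1 (0.092), a DNA repair glycosylase, and ZNF718 (0.098). The measure describes 2 groups of 3 libraries, so any gene with a like fold change scores as close.

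Keratin filaments end at desmosomes and hemidesmosomes, where plakin proteins anchor them. Of 18 tested genes of this list, 6 rose, 8 fell and 4 were not called (77.8% called against 69.2% of all tested genes), with a median log2 fold change of −0.12 against −0.01 over all tested genes. The desmosomal plaque genes DSP, the desmoplakin that binds keratin, JUP (plakoglobin), PKP3 and PKP4 (plakophilins) and DSG2, a desmosomal cadherin, rose. DSP went from 234 ± 14.5 to 295 ± 20.5 CPM (SD, n = 3 each), 1.26-fold (edgeR adjusted p = 7.6e-05), and PKP4 from 76.4 ± 1.81 to 133 ± 5.65 CPM, 1.74-fold. JUP rose 1.31-fold, PKP3 1.27-fold and DSG2 1.4-fold. Among those that fell were the hemidesmosomal integrin ITGB4 (8.54 ± 1.39 to 1.97 ± 0.361 CPM), the plakins MACF1 (1.33-fold lower), PPL (1.3-fold lower), EVPL (1.2-fold lower) and PLEC (1.17-fold lower), and PKP2 (log2 fold change −0.32). The plakins did not all fall: EPPK1 (epiplakin) rose 1.23-fold (edgeR adjusted p = 0.0028), a call lost with limma-trend on FPKM, and DST (dystonin) was not called (log2 fold change −0.07, edgeR adjusted p = 0.55). The calls of EVPL (adjusted p = 0.054) and PLEC (adjusted p = 0.37) were lost after the gene-length correction. PLEC also lost its call without the second LNCaP-ENZR (adjusted p = 0.053) or the third LNCaP-WT library (0.054), and PKP2 without the second LNCaP-ENZR library (0.062).

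**Figure D4:**
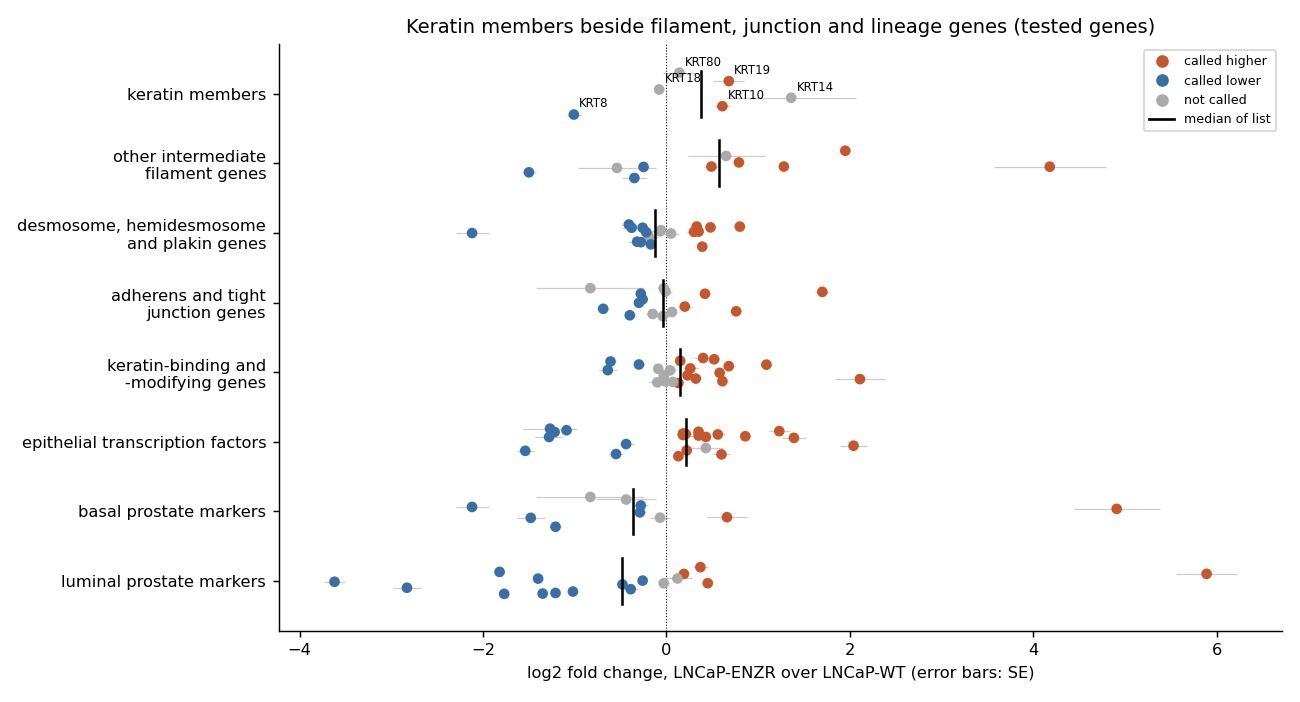
Log2 fold change (LNCaP-ENZR over LNCaP-WT) of the tested genes of each list, with 1 point a gene, coloured by its edgeR call (higher, lower or not called), grey bars of 1 SE and a black bar at the list's median. The keratin row is a description of the 6 tested genes, and desmosomal, junction and basal lists spread to both sides of 0, the other intermediate filament genes have a median of 0.57 and the luminal markers of −0.48.

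Among 10 tested intermediate filament genes other than keratins, 5 rose, 3 fell and 2 were not called (80.0% called against 69.2% of all tested genes, median log2 fold change 0.57). LMNB1, the nuclear lamin B1, had 2196, 2425 and 2256 counts in LNCaP-WT and 8715, 8681 and 8380 in LNCaP-ENZR. It rose 3.86-fold, from 63.5 ± 2.53 to 245 ± 4.7 CPM (SD, n = 3 each; edgeR adjusted p = 4.3e-16), with no overlap. LMNB2 (lamin B2) rose 2.43-fold and NES (nestin, a filament of progenitor cells) 1.73-fold, whereas LMNA (lamin A/C) fell 1.19-fold and SYNM (synemin) 2.83-fold. VIM, the mesenchymal filament vimentin, rose 1.4-fold. NEFL, the light neurofilament, had 1, 0 and 5 counts in LNCaP-WT and 32, 40 and 40 in LNCaP-ENZR. It was named after its values were seen and passed the filter on low counts only through LNCaP-ENZR, so its rise is descriptive.

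Of 21 tested genes whose proteins bind or modify keratins, 12 rose, 3 fell and 6 were not called (71.4% called against 69.2% of all tested genes, median 0.15). HSPB1, a small heat shock protein that associates with keratin filaments, rose 2.12-fold, from 489 ± 19.5 to 1040 ± 71.6 CPM (SD, n = 3 each; edgeR adjusted p = 2.3e-12). The 14-3-3 proteins bind phosphorylated KRT18. SFN (14-3-3 sigma) had 63, 34 and 23 counts in LNCaP-WT and 166, 173 and 168 in LNCaP-ENZR, a 4.33-fold rise, and YWHAE rose 1.5-fold and YWHAH 1.6-fold. STUB1, a ubiquitin ligase, rose 1.52-fold. PRKCE, a protein kinase C that phosphorylates KRT18, fell 1.56-fold and SQSTM1, an autophagy receptor found in keratin inclusions, 1.52-fold.

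Epithelial transcription factors changed in both directions: of 22 tested, 14 rose, 7 fell and 1 was not called (95.5% called against 69.2% of all tested genes, median 0.22). KLF5, a factor of basal and progenitor epithelium, rose 4.1-fold, from 2.47 ± 0.291 to 10.2 ± 0.651 CPM (SD, n = 3 each; edgeR adjusted p = 3e-10). OVOL2 rose 2.63-fold and EHF 1.82-fold, both factors that maintain epithelial identity, and FOS, an AP-1 subunit, 2.34-fold. OVOL1 fell 2.9-fold, SOX9 2.43-fold and JUN, another AP-1 subunit, 2.13-fold.

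Of 15 tested adherens and tight junction genes, 4 rose, 5 fell and 6 were not called (60.0% called against 69.2% of all tested genes, median −0.04). CGN (cingulin) rose 3.26-fold, from 20.2 ± 1.32 to 65.9 ± 3.59 CPM (SD, n = 3 each; edgeR adjusted p = 2.3e-13), TJP1 (ZO-1) 1.69-fold and CTNNB1 (beta-catenin) 1.34-fold. OCLN (occludin) fell 1.62-fold, CLDN4 (claudin 4) 1.32-fold and CDH1 (E-cadherin) 1.2-fold, the last from 912 ± 29.4 to 760 ± 18.3 CPM.

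Of 10 tested basal markers other than keratins, 2 rose, 5 fell and 3 were not called (70.0% called against 69.2% of all tested genes, median −0.36). TP63, the defining basal factor, was barely detected, with 3 counts summed over the parent libraries and 1 over the resistant ones. LAMA3, a laminin 332 chain, fell 2.31-fold, from 877 ± 71.3 to 379 ± 28.8 CPM (SD, n = 3 each; edgeR adjusted p = 2.2e-11). SNAI2, a factor of basal and mesenchymal cells, had 5, 4 and 0 counts against 89, 106 and 78. Of 17 tested luminal markers, 4 rose, 11 fell and 2 were not called (88.2% called against 69.2% of all tested genes, median −0.48). KLK3, the gene for prostate-specific antigen, fell 3.52-fold, and HOXB13, a prostate lineage factor, rose 1.37-fold. MSMB, a secreted protein of luminal cells, had 4, 6 and 1 counts against 247, 230 and 176. SNAI2 and MSMB passed the filter on low counts only through LNCaP-ENZR, so their rises are descriptive.

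Many markers of other epithelial states had too few counts to test. Of 11 club and hillock markers with a row, 5 were tested, 2 of them higher and 2 lower (80.0% called against 69.2% of all tested genes). CP (ceruloplasmin) had 33, 16 and 38 counts in LNCaP-WT and 208, 219 and 201 in LNCaP-ENZR, and PSCA rose 1.86-fold. PIGR, the polymeric immunoglobulin receptor of secretory epithelium, fell, with 125, 122 and 136 counts against 7, 19 and 13 (9.46-fold; edgeR adjusted p = 1.4e-08), and CLDN4 belongs to this list too. Of 11 cornification genes with a row, 4 were tested, 1 higher and 2 lower (75.0% called against 69.2% of all tested genes). TGM3, an epidermal transglutaminase, fell 1.71-fold. The 13 leukocyte, endothelial and fibroblast markers summed to 139 to 151 CPM in LNCaP-WT and 151 to 181 CPM in LNCaP-ENZR. Of these, 9 were tested, 2 higher and 2 lower (44.4% called against 69.2% of all tested genes). VWF, an endothelial marker, rose 44.4-fold, with 25, 42 and 9 counts in LNCaP-WT and 1029, 1097 and 1169 in LNCaP-ENZR (edgeR adjusted p = 5.1e-09). TAGLN and ACTA2, markers of smooth muscle and myofibroblasts, fell 2.69- and 4.15-fold. For VWF, PIGR and ACTA2, the line with the lower level would not have passed the filter on low counts by itself. The tests of these genes are therefore descriptive. COL1A1 gave most of the sum and was steady, at 105 ± 4.1 and 103 ± 7.48 CPM (SD, n = 3 each), whereas COL1A2 had 167, 21 and 193 counts in LNCaP-WT and 9, 332 and 111 in LNCaP-ENZR. The T cell gene CD3E was at 0 in every LNCaP-WT library and summed to 1 count in LNCaP-ENZR, and PECAM1, another endothelial marker, had at most 11 counts in a library. The part of these genes in the keratin values was not tested.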

How the data were processed

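Poly(A) RNA of 6 cultured samples was sequenced as 150-base read pairs. Per the submitters' processing notes, fastp, HISAT2 and HTSeq were used with GRCh38; no source used here gives their versions, the annotation or a strand setting. The deposited tables hold whole-number counts per gene and the authors' FPKM values, which are counts divided by gene length and library total. From the counts, edgeR 4.0.16 (R 4.3.3) computed TMM factors, its default filter (filterByExpr, minimum count 10), and robust quasi-likelihood F tests between the groups of 3, with Benjamini-Hochberg adjustment over 15422 genes and a threshold of 0.05. Ratios and sums used FPKM with exact permutation tests (SciPy 1.17.1). Alternatives used DESeq2 1.42.0 and limma 3.58.1, other scalings, filters, pseudocounts (0.1 and 1), a loess gene-length offset and each library left out. On simulated counts, the edgeR step recovered 48 of 48 genes changed 4-fold and 39 of 49 changed 2-fold. It recovered 34 of 50 changed 1.5-fold and 27 of 50 changed 1.25-fold. Beside these calls it made 12 false calls, among 15206 genes in all. Few genes were changed in that run. How the step behaves when 69.2% of genes are called, as between these lines, was not tested. The biological coefficient of variation from edgeR's common dispersion was 7.41%.

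Sequences and exon overlaps come from GENCODE release 29, gene positions from RefSeq. Members, lists and tests were chosen with earlier results of these data known. Named genes were all 10 keratins, up to 5 called genes a list with the largest changes and a mean of at least 100 counts, those of opposite direction, and 3 nearest genes for KRT8, KRT18 and KRT19. Genes named outside that rule include SFN's relative YWHAE, NEFL, SNAI2, HOXB13, TP63, KRT7-AS, EHF, JUN, SQSTM1, COL1A1, COL1A2, ACTA2, CD3E, PECAM1, PIGR, the desmosomal genes DSP, PKP2, PKP3, PPL, EVPL, PLEC, EPPK1 and DST, LMNA and CDH1. Some genes that the rule names are not reported here. Correlations of same-numbered deviations were low (0.0132, 0.0267 and 0.0651 for numbers 1, 2 and 3). Only the libraries numbered 3 were each other's best match, and the numbers were not treated as pairs in the main test.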

Additional observations from a re-analysis of the deposited data

How the results depend on the processing

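Among the 10 keratins, 2 or 3 genes were higher under every alternative (3 with limma-voom, where KRT14 was added). The number lower was 2 with the DESeq2 Wald test and with no filter, where KRT7 joined KRT8, and also 2 with library totals alone, with the length offset and with limma-trend on FPKM at either pseudocount, where KRT18 joined it. Leaving out 1 library gave 1 to 3 lower and 2 to 3 higher. KRT8, KRT10 and KRT19 kept their calls under all 17 alternatives. Without KRT8 and KRT18 the summed FPKM of the remaining keratins was 5.27 higher in LNCaP-ENZR, the reverse of the sum over 10 genes (-13.4 with FPKM divided by TMM factors). Why scaling and length moved KRT18 was not tested. Leaving out 1 library moved the KRT18 to KRT8 difference over 0.89 to 0.94, that of type I over type II over 0.92 to 0.98, the summed level over -26.2 to -18.4 FPKM, and that of basal over luminal keratins over 0.96 to 3.29 on the log2 scale. Basal over luminal without KRT15 and KRT7 gave no value, since 1 library was then at 0.

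With the replicate number as a block, 2 keratins were higher and 1 lower, and 5316 genes were higher and 5398 lower against 5308 and 5366 without it. The ratios and the sum stayed the same, with a sign-flip p of 0.25, the smallest 3 pairs allow. The libraries share only a number. Over 73 genes followed and 1235 values under alternatives, 1204 kept direction and call, 18 lost the call, 8 gained it and 5 reversed. The reversals were of 2 uncalled genes: DST (0.16 with the length offset, -0.17 to 0.01 with 1 library left out) and COL1A1 (0.04 with the length offset, -0.08 to 0.02 with 1 library left out). Depth limits KRT5, KRT7, KRT14, KRT15 and KRT17, whose libraries hold at most 17 counts each.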
